A study of Mus musculus with 27 samples.

Results

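Kupffer cells are the macrophages that live inside the sinusoids of the liver. They take up bacteria, dying cells, lipoproteins and haemoglobin from the blood that passes through, they depend on signalling through the CSF1 receptor, and they are a main source of complement C1q. A set of 10 genes that mark them was followed in the liver of suckling mice: the surface lectin Clec4f, the complement receptor Vsig4, the scavenger receptors Marco, Cd163 and Timd4, the secreted scavenger protein Cd5l, the CSF1 receptor Csf1r and the chains C1qa, C1qb and C1qc of complement C1q. They are 10 of the 18820 genes measured. For each gene the probe set that names this gene alone and has the highest mean over the 27 arrays was taken, and all 10 passed the filters on intensity and variability that left 10810 genes for testing.

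The pups were the offspring of C57BL/6J dams, 2 weeks of age and still with them. Dams had received a low fat diet (LFD, 10% of energy as fat, 18.0 mg cholesterol per kg) or a Western-style diet (WSD, 45% of energy as fat, 196.5 mg cholesterol per kg) for 6 weeks before mating and then through pregnancy and lactation, and were mated with males on control diet. The groups were 6 males (m-LF) and 9 females (f-LF) of LFD dams and 6 males (m-WS) and 6 females (f-WS) of WSD dams, with 1 array of whole liver RNA per pup. Values are log2 signals, in which a difference of 1 is a doubling, and array medians lay between 5.34 and 5.43.

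Some libraries need a word before the results. Xist, the transcript of the inactive X chromosome of females, had a log2 signal of 9.30 in the male m-LF6 and 7.92 in the male m-WS1, against 3.25 to 4.50 in the other 10 males, which goes against the label of these libraries. Array names also carry a number whose meaning the labels do not give. Numbers 37, 49 and 50 hold LFD pups and numbers 39, 40 and 48 hold WSD pups, so number and diet cannot be told apart. Which pups share a dam is not given in the labels, and p-values over pups take them as independent. The 7 hepatocyte genes measured lay between 11.2 and 13.3 on all arrays, and each of the 10 Kupffer cell markers was above the intensity filter on all 27 arrays. Cd163 was the dimmest of these markers, with a mean of 5.50 over 27 arrays, while the others had means from 7.13 to 10.57. Its mean in m-WS, 5.15, lay below the array medians. In whole liver, fewer Kupffer cells and less RNA per Kupffer cell cannot be told apart.

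The question was whether the maternal diet was associated with the level of these genes in sons and in daughters. In males, Cd163 fell and the other 9 markers did not pass the test. In females none passed. A gene was called at a p of 0.01 or less in limma, the threshold of the study, and the adjusted p is that of Benjamini and Hochberg over the 10810 genes. At this threshold 1 of 10 markers fell in males and 0 rose, where 5.62% of all genes tested were called in either direction, 2.6% fell and 3.02% rose. The fall of Cd163 also passed an adjusted p of 0.05, as 0.731% of all genes did in males. In females 0 of 10 were called in limma, against 5.19% of all genes, with 1 of 10 at an unadjusted p under 0.05, where 14.5% of all genes were. The smallest exact permutation p of a marker in females was 0.0208, for C1qa. The median log2 fold change of the 10 markers was -0.10 in males, beside 0.01 over all genes tested, and 0.00 in females, beside 0.01.

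**Figure D1:**
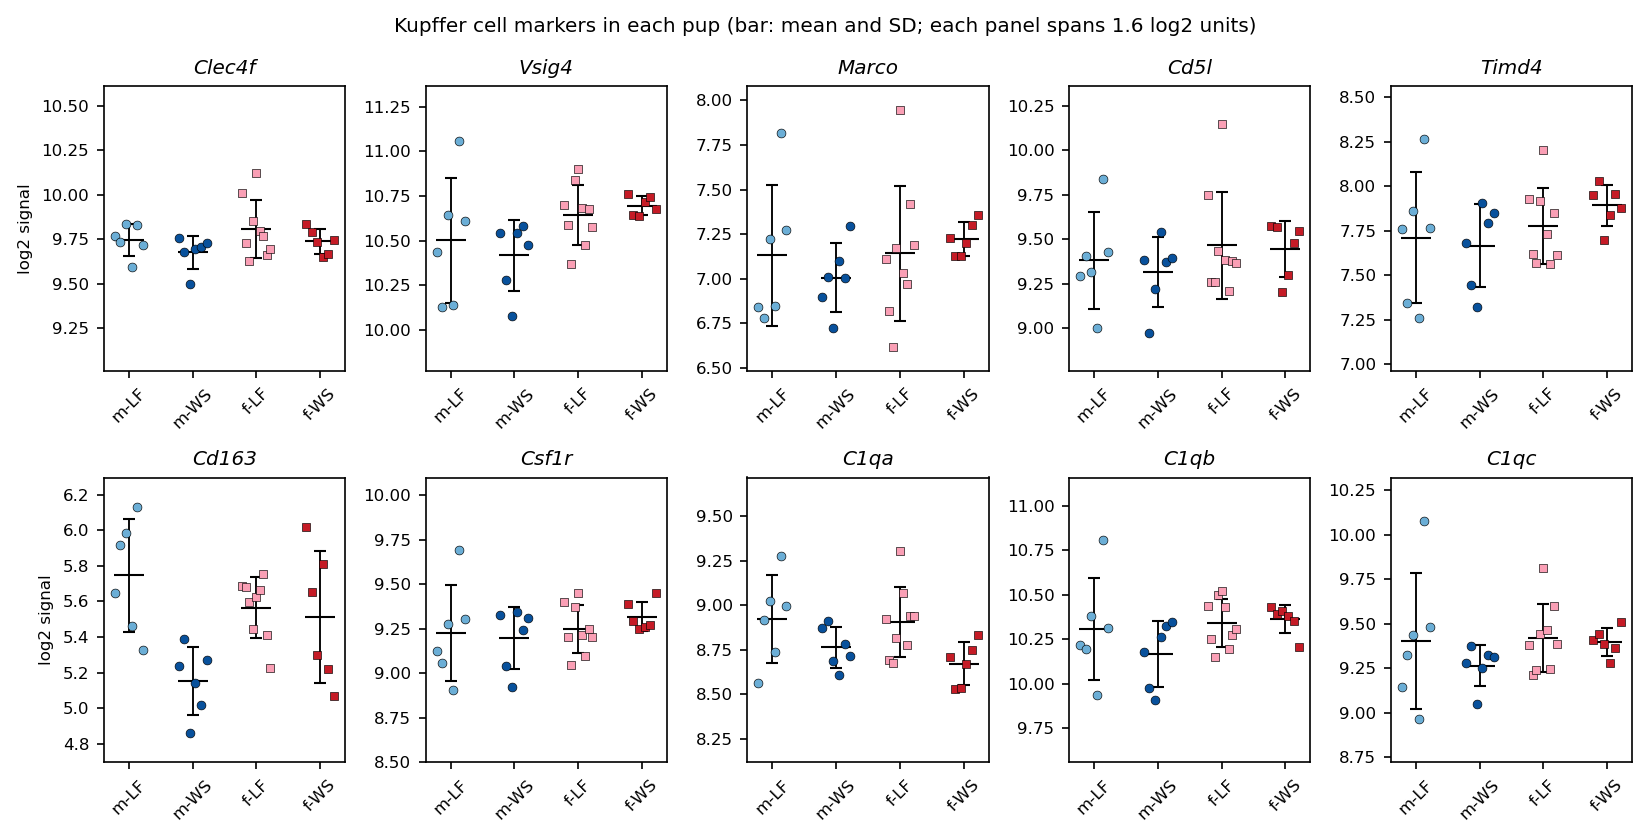
Log2 signal of each Kupffer cell marker (vertical axis, a range of 1.6 log2 units in every panel) in each pup of the 4 groups (horizontal axis), with the group mean and SD as a bar. In the Cd163 panel 5 of the 6 m-WS pups sit below all m-LF pups, while in the other panels the m-LF and m-WS pups overlap more widely.

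Cd163 is the receptor through which macrophages clear complexes of haemoglobin and haptoglobin. In the 6 males of LFD dams its log2 signal was 5.65, 5.92, 5.99, 5.46, 6.13 and 5.33, and in the 6 males of WSD dams it was 5.24, 5.39, 4.86, 5.14, 5.02 and 5.27. All 6 m-WS pups were below the m-LF median of 5.78, and 5 of 6 were below every m-LF pup. The groups overlapped only through m-LF6 at 5.33 and m-WS2 at 5.39. The means were 5.75 ± 0.32 (SD, n = 6) and 5.15 ± 0.19 (SD, n = 6), and Cd163 fell by 0.59 on the log2 scale (SE 0.14, 95% interval -0.88 to -0.30, adjusted p = 0.0437 in limma). On the linear scale it fell by 33.6%. The exact 2-sided permutation test over pups gave p = 0.00433, where the smallest p that 924 regroupings allow is 0.00216. Without m-LF6 the log2 fold change was -0.68 (adjusted p = 0.00968 in limma), and without both males of high Xist signal it was -0.69 (adjusted p = 0.0164 in limma). Each fit that left out another single male kept the call at the unadjusted threshold, with an adjusted p from 0.0528 to 0.118 in limma.

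In females, Cd163 ranged from 5.22 to 5.76 around a median of 5.62 in the 9 f-LF pups, and was 6.02, 5.65, 5.30, 5.81, 5.22 and 5.07 in the 6 f-WS pups. The f-WS pups spread over both sides of the f-LF range, with 2 below and 2 above all f-LF pups. The means were 5.57 ± 0.17 (SD, n = 9) and 5.51 ± 0.37 (SD, n = 6), with a log2 fold change of -0.05 (95% interval -0.32 to 0.21, adjusted p = 0.896 in limma). The change in males minus the change in females was -0.54 (SE 0.19, 95% interval -0.93 to -0.15), which passed the threshold that 2.5% of all genes passed, but not after adjustment (adjusted p = 0.393 in limma). It missed the threshold under 13 of the other settings, besides those that left out 1 pup at a time. The values are given with the alternatives at the end.

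**Figure D2:**
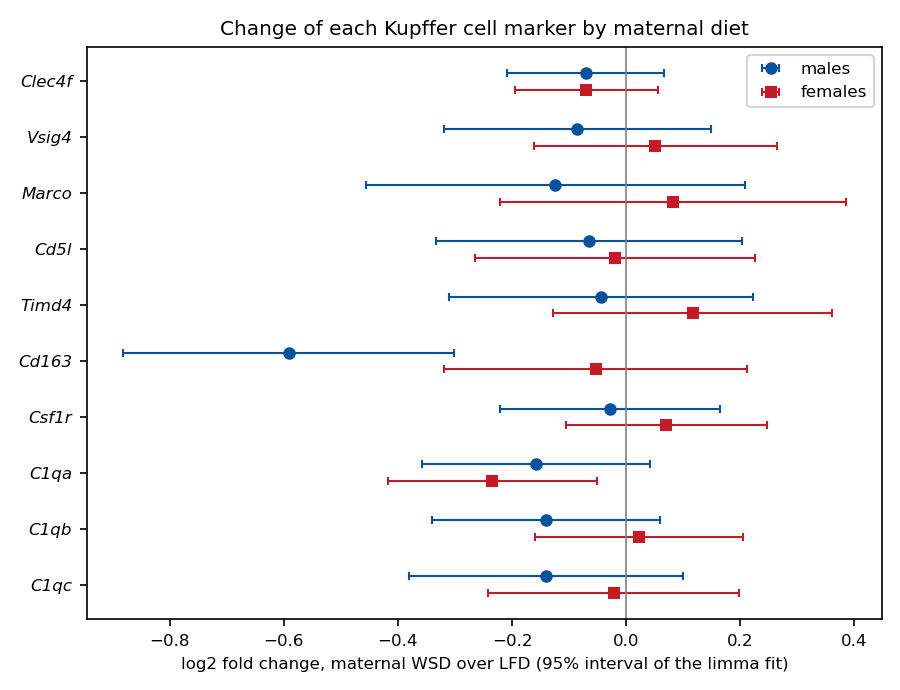
Log2 fold change of each marker, maternal WSD over LFD (horizontal axis), in males (blue circles) and females (red squares), with the 95% interval of the limma fit. The interval of Cd163 in males, -0.88 to -0.30, and that of C1qa in females, -0.42 to -0.05, lie to the left of 0, and all the others include it.

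The number in the array name moved with Cd163 within the WSD pups. The 6 pups of number 48 had 4.86 to 5.27 in both sexes, the 4 of number 40 had 5.24 to 5.81, and the 2 of number 39, both female, had 5.65 and 6.02. Males of WSD dams came only from numbers 40 and 48. Without number 48, which held 4 of the m-WS pups, only m-WS1 and m-WS2 were left in that group. The log2 fold change in males was then -0.43 and the call was lost (adjusted p = 0.422 in limma). With the number as a random block it was -0.55 (adjusted p = 0.128 in limma), and with the arrays of 1 number and sex averaged it was -0.55 (adjusted p = 0.432 in limma). Array names start with one of 2 prefixes, which both diets share: within G073 the log2 fold change was -0.67 (adjusted p = 0.2 in limma) and within G074 it was -0.45 (adjusted p = 0.998 in limma), which missed the threshold. The males of G074 were only m-LF2 and m-LF6 against m-WS2, m-WS3 and m-WS6, so these fits with fewer pups also had less power. The part of the number in the result was not tested.

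**Figure D3:**
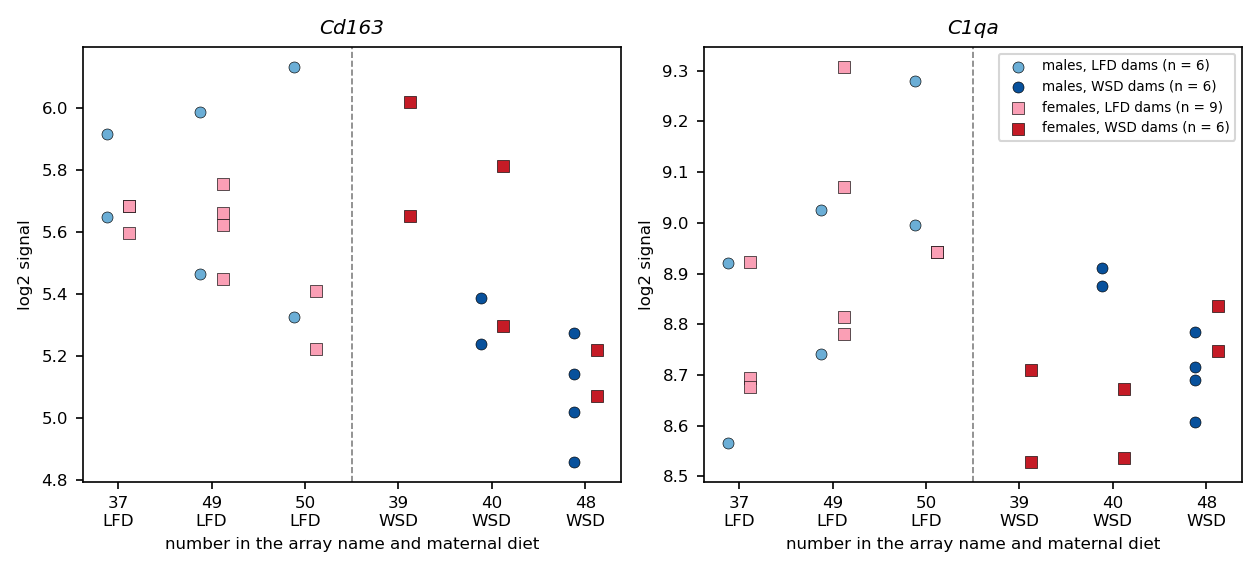
Log2 signal of Cd163 (left) and C1qa (right) in each pup (vertical axis) by the number in the array name (horizontal axis), LFD numbers left and WSD numbers right of the dashed line, males as circles and females as squares. All 6 pups of number 48 lie at or below 5.27 for Cd163, while for C1qa they lie between 8.61 and 8.84.

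The other scavenger receptors and surface markers changed little against their spread. Marco, which binds bacteria and other polyanionic particles, had 7.13 ± 0.40 (SD, n = 6) in m-LF and 7.01 ± 0.19 (SD, n = 6) in m-WS, with a 95% interval of the log2 fold change from -0.46 to 0.21. Timd4, a receptor for phosphatidylserine on dying cells, had 7.71 ± 0.37 and 7.67 ± 0.23 in the same groups, with an interval from -0.31 to 0.22. Vsig4, which binds fragments of complement C3, had 10.50 ± 0.35 and 10.42 ± 0.20, with an interval from -0.32 to 0.15. For these 3 genes the m-LF pups spread more widely than the m-WS pups, and the WSD pups lay within or near their range. Clec4f, a lectin that in mice is found on Kupffer cells, had the narrowest interval of the set, from -0.21 to 0.07 in males and from -0.20 to 0.06 in females. Cd5l, a secreted protein of macrophages, had intervals from -0.33 to 0.20 in males and from -0.26 to 0.23 in females. These intervals bound the changes that 6 to 9 pups a group could show, and a missed threshold does not show that the diets gave equal levels.

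Csf1r, the receptor that keeps macrophages alive, had log2 signals of 9.23 ± 0.27 (SD, n = 6) in m-LF and 9.20 ± 0.17 (SD, n = 6) in m-WS, and of 9.25 ± 0.14 (SD, n = 9) and 9.32 ± 0.08 (SD, n = 6) in f-LF and f-WS. Its log2 fold change of -0.03 in males was the smallest of the set (95% interval -0.22 to 0.16). Neither of its ligands was called: Csf1 differed by 0.04 in males and -0.07 in females, and Il34 by 0.16 and -0.07 (adjusted p from 0.529 to 0.86 in limma).

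C1qa, C1qb and C1qc code for the chains of C1q, the recognition unit of the classical complement pathway, and none was called in either sex. C1qa lay between 8.68 and 9.31 around a median of 8.92 in the 9 f-LF pups, and was 8.71, 8.53, 8.54, 8.67, 8.75 and 8.84 in the 6 f-WS pups. All 6 f-WS pups were below the f-LF median, and 3 were below every f-LF pup. Its log2 fold change was -0.23 (SE 0.09, 95% interval -0.42 to -0.05), which missed the threshold (adjusted p = 0.214 in limma) and had an exact 2-sided permutation p of 0.0208. C1qb had a log2 fold change of 0.02 (95% interval -0.16 to 0.20) and C1qc of -0.02 (95% interval -0.24 to 0.20) in females, the 3 intervals overlap, and the difference between the chains was not tested. In males the 3 chains had log2 fold changes of -0.16 for C1qa and -0.14 for both C1qb and C1qc, none of them called (adjusted p from 0.497 to 0.657 in limma). Set against C1qb within the same pup, and relative to the mean of 27 pups, C1qa stood at 0.04 ± 0.14 (SD, n = 9) in f-LF and -0.22 ± 0.19 (SD, n = 6) in f-WS, and at 0.09 ± 0.17 and 0.07 ± 0.24 (SD, n = 6 each) in m-LF and m-WS. These within-pup differences are a description.

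All 10 log2 fold changes in males were below 0, as were 5100 of the 10810 genes tested. For most of the markers this direction rested on few pups. Without the 4 pups of number 50, of which m-LF5 and m-LF6 are the males, 6 markers changed sign. Vsig4, Marco, Cd5l, Timd4, Csf1r and C1qc turned to values between 0.05 and 0.11, and none was called. No marker had groups without overlap in either sex, where 1.39% of all genes tested in males and 0.435% in females had such groups. Between the sexes, 0 of 10 markers were called in limma on either diet, against 1.37% of all genes on LFD and 3.35% on WSD, with 0 of 10 and 2 of 10 at an unadjusted p under 0.05, where 6.6% and 10.8% of all genes were. On WSD, males minus females was -0.36 for Cd163 (adjusted p = 0.336 in limma) and -0.28 for Vsig4 (adjusted p = 0.352 in limma).

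The markers other than Cd163 varied together from pup to pup. After the mean of each group was taken away, the 36 pairs of the 9 markers without Cd163 had a Pearson r over 27 pups from 0.49 to 0.93, with a median of 0.76. The pair of Vsig4 and Csf1r was at 0.93 and that of Vsig4 and Timd4 at 0.92. The 9 pairs that include Cd163 had an r from 0.10, with Marco, to 0.40, with Clec4f, and a median of 0.25. Against the mean of the 9 others Cd163 had an r of 0.27, a value that 22.6% of all genes tested reached, while the lowest of the others against the mean of the rest of the 9 was C1qa at 0.69. These correlations are a description, over pups that share arrays' normalization and array numbers. Cd163 also had the lowest mean signal of the 10 markers, and the part of this in its low r was not tested.

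**Figure D4:**
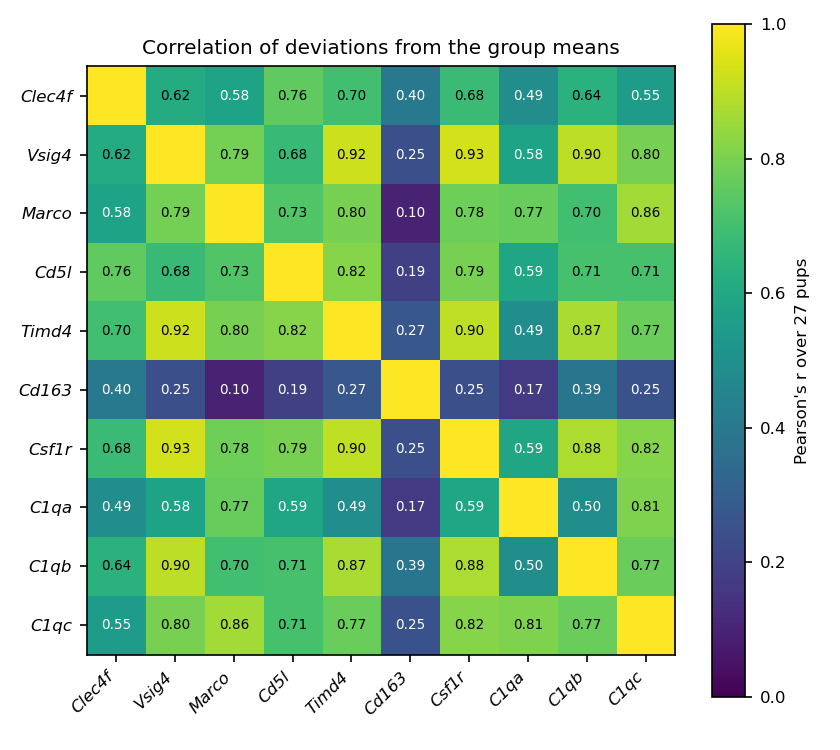
Pearson's r over 27 pups between the deviations of each pair of markers from their group means (colour scale from 0 to 1, values printed in the cells). The row and column of Cd163 hold 0.10 to 0.40, and all other pairs hold 0.49 to 0.93.

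The same pups stood high or low for many markers at once. The male m-LF5 was the highest of 27 pups for 6 markers and the female f-LF5 for the other 4, while m-WS3 was the lowest for 4 and m-LF4 for 3. For the mean of the 9 markers without Cd163, relative to the mean of 27 pups, m-LF ran from -0.33 to 0.48 and m-WS from -0.33 to 0.01, with group means of 0.00 ± 0.28 and -0.10 ± 0.13 (SD, n = 6 each). f-LF and f-WS both had a mean of 0.04, with SDs of 0.19 (n = 9) and 0.06 (n = 6). Cd163 set against these 9 within the same pup stood at 0.25 ± 0.28 (SD, n = 6) in m-LF and -0.25 ± 0.18 (SD, n = 6) in m-WS. In females the same difference was 0.02 ± 0.26 (SD, n = 9) in f-LF and -0.03 ± 0.37 (SD, n = 6) in f-WS.

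**Figure D5:**
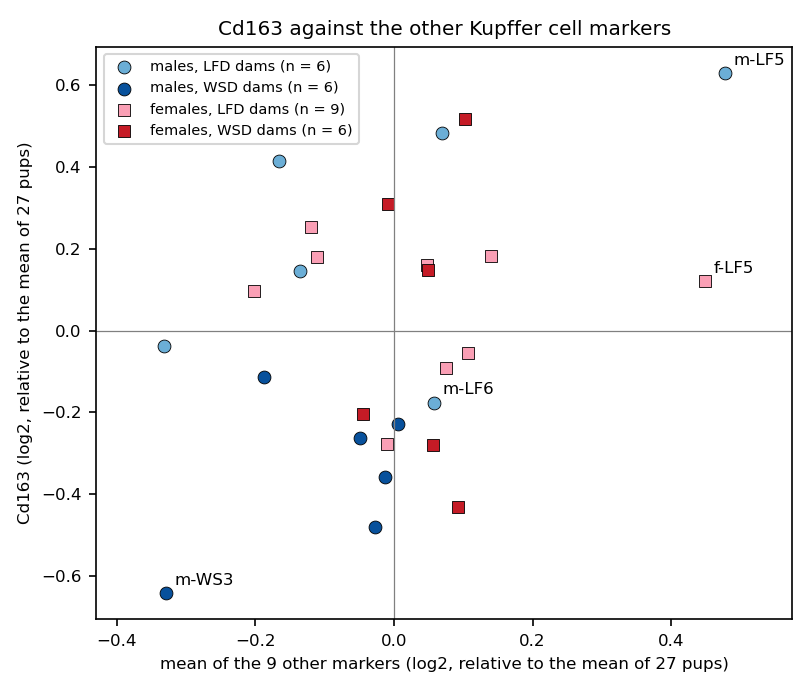
Cd163 (vertical axis) against the mean of the 9 other markers (horizontal axis), both in log2 units relative to the mean of 27 pups, with 1 point per pup. The 6 m-WS pups all lie below 0 for Cd163, from -0.64 to -0.11, while m-LF5 at 0.48 and f-LF5 at 0.45 lie far to the right for the other markers.

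The genes outside the set whose deviations were most like the mean of the 10 markers were Cd68, a lysosomal protein of macrophages, at an r of 0.95, then Slc11a1, a metal transporter of the phagosome, Adgre1, which codes for the macrophage antigen F4/80, AB124611, Cfp, Fcgr3, Ly86, Lgmn, Spic and Sirpa, the last at 0.91. The median r over all other genes tested was 0.01. Adgre1 had log2 fold changes of -0.03 in males and 0.09 in females, and Cd68 of -0.07 and 0.02, none of them called (adjusted p from 0.785 to 0.952 in limma). The genes most like Cd163, which were looked up after its values had been seen, were others: the 3 highest were Slc7a5, an amino acid transporter, at 0.73, Tsc22d1 at 0.72 and Wfdc1 at 0.72, and the lowest were Clcn2, a chloride channel, at -0.78 and Ddc, an amino acid decarboxylase, at -0.77. The best rank of another Kupffer cell marker among the 10809 genes ordered by r with Cd163 was 540.

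The stretches of 250 bases before the start of transcription are shown for Cd163 and for 3 of the markers that varied together, since Cd163 stood apart from these. They come from RefSeq on GRCm38.p6, where 8 of the 10 markers had an entry. Letters searched on both strands were GAGGAA, a string in sites of the macrophage factor PU.1, and TGCTGA, a partial site of Maf factors. Matches are in capitals (TCAGCA is TGCTGA on the other strand).
Cd163, chr6:124304401-124304650, plus strand: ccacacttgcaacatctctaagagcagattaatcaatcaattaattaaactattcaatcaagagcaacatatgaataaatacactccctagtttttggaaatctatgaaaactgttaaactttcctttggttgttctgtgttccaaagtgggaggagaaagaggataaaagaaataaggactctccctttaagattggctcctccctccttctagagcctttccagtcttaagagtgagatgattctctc
Vsig4, chrX:96293439-96293688, minus strand: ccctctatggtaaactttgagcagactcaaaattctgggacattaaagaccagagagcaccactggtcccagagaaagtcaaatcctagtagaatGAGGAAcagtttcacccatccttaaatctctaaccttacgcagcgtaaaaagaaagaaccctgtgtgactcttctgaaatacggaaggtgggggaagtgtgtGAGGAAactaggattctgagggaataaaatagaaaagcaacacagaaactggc
Timd4, chr11:46810549-46810798, plus strand: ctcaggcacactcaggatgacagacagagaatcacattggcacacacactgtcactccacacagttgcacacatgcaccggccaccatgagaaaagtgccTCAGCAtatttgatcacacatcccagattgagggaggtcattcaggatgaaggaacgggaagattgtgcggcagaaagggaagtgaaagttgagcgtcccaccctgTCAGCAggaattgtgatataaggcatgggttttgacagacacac
C1qb, chr4:136886201-136886450, minus strand: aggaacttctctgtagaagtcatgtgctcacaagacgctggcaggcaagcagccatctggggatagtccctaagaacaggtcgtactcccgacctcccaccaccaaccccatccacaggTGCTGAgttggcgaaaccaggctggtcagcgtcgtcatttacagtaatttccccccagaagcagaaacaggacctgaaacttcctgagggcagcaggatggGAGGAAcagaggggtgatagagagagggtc
GAGGAA was in 5 of the 8 markers and in 23.3% of 32851 promoters of the same length, and TGCTGA was in 4 of 8 and in 16.1%. Cd163 held neither of these strings. Vsig4 held GAGGAA at 2 places, Timd4 held TGCTGA at 2 places, and C1qb held both. A match of letters is a description and no site of binding, and its absence says only that these letters are not in this window.

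Partners of Cd163 in the clearance of haemoglobin were read from a list of 8 genes, of which 5 were tested. Over all genes tested, 3.02% rose and 2.6% fell in males and 3.6% rose and 1.59% fell in females, which is the background for this list and those that follow. Besides the Kupffer cell markers, 15 genes of the lists were called in males and 5 in females. These counts changed with the array numbers used and, in females, with array weights. In males 7 were called with averaged arrays, 4 without number 37, 8 without 48, 9 without 40 or 49 and 30 without 50. In females 8 were called with array weights and 14 without 50. The count in females was 3 without 49, with averaged arrays and with the number as a random block. Within prefix G074 alone 2 were called in each sex. In males Blvrb, a biliverdin reductase, fell (log2 fold change -0.36, adjusted p = 0.147 in limma) and none of the other 4 was called. This call was lost with array weights (-0.31), with the array number as a random block (-0.31), with averaged arrays (-0.32), within either prefix (-0.37 and -0.32), and without number 37 (-0.33), 48 (-0.20), 49 (-0.39) or 50 (-0.35). In females Blvra, the other biliverdin reductase, rose (0.16, adjusted p = 0.176 in limma), a call that held in 31 of 51 settings. The median of the list was -0.05 in males and -0.16 in females. The change in males minus that in females was 0.34 for the ferritin light chain Ftl1 (adjusted p = 0.366 in limma).

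Of 19 tested genes of a further list of Kupffer and tissue macrophage surface and scavenger genes, 1 fell and 0 rose in males and 1 rose and 0 fell in females, with medians of -0.07 and 0.03. The gene that fell in males was Mertk, a receptor tyrosine kinase for the uptake of dying cells (-0.17, adjusted p = 0.177 in limma), a call that held in 17 of 51 settings. The gene that rose in females was Hpgd, which breaks down prostaglandins (0.22, adjusted p = 0.0785 in limma). Of 9 tested transcription factors of macrophages, 0 were called in males and 1 rose in females, which was Irf8, a factor of monocyte and macrophage development (0.24, adjusted p = 0.0957 in limma). The smallest p among these factors in males was that of Cebpa (0.20, adjusted p = 0.22 in limma). Of 12 pan-myeloid genes 0 were called in either sex, with medians of 0.04 and 0.06, and the smallest p was that of Coro1a in males (0.36, adjusted p = 0.205 in limma) and Aif1 in females (0.12, adjusted p = 0.482 in limma). Of 3 tested genes of the C1 complex and classical pathway besides the C1q chains, complement C2 fell in females (-0.27, adjusted p = 0.0138 in limma), a threshold of 0.05 that 0.305% of all genes passed. Its change in males minus that in females was 0.34 (adjusted p = 0.182 in limma), and in males the smallest p was that of C1ra (-0.10, adjusted p = 0.543 in limma).

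Markers of other liver and blood cells moved in males beside Cd163. Of 10 neutrophil and myeloid precursor genes 3 rose in males: Cxcr2 by 0.39, S100a9 by 0.82 and Ltf by 0.73, with a list median of 0.67 and adjusted p from 0.0797 to 0.168 in limma. The call of Cxcr2 held in 45 of 50 settings, that of S100a9 in 36 of 51 and that of Ltf in 32 of 51. Of 8 lymphocyte genes 4 rose, all of the B cell lineage: Igll1 by 1.14 (adjusted p = 0.0332 in limma), Ebf1 by 0.89, Cd79a by 0.84 and Pax5 by 0.72, the last 3 with adjusted p from 0.0856 to 0.0989 in limma. The median of this list was 0.64, and these B cell calls held in 47 to 50 of 51 settings. The mean signal of the neutrophil list ran from 5.01 to 6.45 in m-LF and from 5.72 to 6.35 in m-WS, and that of the lymphocyte list from 5.26 to 6.12 and from 5.79 to 6.19, so the groups overlapped for both lists. In females 0 of 10 and 0 of 8 were called, with the smallest p for Mmp8 (0.77, adjusted p = 0.213 in limma) and Igll1 (0.49, adjusted p = 0.323 in limma). The list medians in females were 0.30 and 0.13. For the change in males minus that in females, 0 of 10 and 0 of 8 were called, against 2.5% of all genes. The part of these genes in the values of Cd163 was not tested.

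Among resident cells, the sinusoidal endothelial lectin Clec4g fell in males (-0.38, adjusted p = 0.0728 in limma), as 1 of 12 endothelial genes, and the stellate cell genes Reln (-0.22, adjusted p = 0.0745 in limma) and Lrat (-0.24, adjusted p = 0.142 in limma) fell as 2 of 7. The call held in 49 of 51 settings for Clec4g, in 48 for Reln and in 40 for Lrat. The other 5 stellate cell and fibroblast genes were not called and ran from -0.08 to 0.22, and the list median was 0.04. The bile duct factor Sox9 rose (0.43, adjusted p = 0.0868 in limma), as 1 of 4 cholangiocyte genes, while the other 3 were not called and ran from -0.72 to -0.17, with a list median of -0.22. H2-Ab1 rose (0.31, adjusted p = 0.175 in limma), as 1 of 8 dendritic cell and MHC class II genes, with a list median of 0.12. The call of H2-Ab1 held in 23 of 51 settings. Of 10 monocyte markers Cd9 fell (-0.32, adjusted p = 0.109 in limma), with a list median of 0.00, and the median of the endothelial list was 0.01. Of 8 erythroid genes 0 were called in males, and in females the transferrin receptor Tfrc rose (0.18, adjusted p = 0.178 in limma), a call that held in 27 of 51 settings. None of these passed an adjusted p of 0.05. Of the lists of endothelial, stellate, cholangiocyte, MHC class II and monocyte genes, 0 genes were called in females, where the smallest p belonged to Lyve1 (-0.32, adjusted p = 0.361 in limma), Pdgfrb (-0.04, adjusted p = 0.844), Krt7 (0.18, adjusted p = 0.439), H2-Aa (-0.27, adjusted p = 0.358) and Itgam (0.17, adjusted p = 0.58). Tat was the hepatocyte gene that passed the filters, and its change was 0.08 for males (adjusted p = 0.871 in limma) and -0.10 for females (adjusted p = 0.797 in limma). Among these lists the change in males minus that in females was called for Cd9 (-0.40), Reln (-0.24), Krt7 (-0.45) and Tfrc (-0.33), with adjusted p from 0.361 to 0.391 in limma. This call held in 31 of 50 settings for Cd9, 23 for Reln, 30 for Krt7 and 48 for Tfrc. In males Tfrc had the smallest p of the erythroid genes (-0.16, adjusted p = 0.257 in limma). The part of these cells in the values of the Kupffer cell markers was not tested.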

How the data were processed

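RNA from the liver of each of 27 pups was measured on its own array of the Affymetrix Mouse Gene 1.1 ST type. The deposited values are log2 signals of probe sets, normalized and summarized by the authors with RMA, in a version not given in the sources used here. The number of arrays limits the precision. Of 35556 probe sets 21218 name a single gene, and the brightest on average stood for each of 18820 genes. The study's filters (intensity 20 or more on 4 or more arrays, interquartile range 0.1 or more) left 10810. Using limma 3.58.1 under R 4.3.3, a model of the 4 groups was fitted with a prior variance that follows intensity, and p-values were adjusted after Benjamini and Hochberg within each comparison. Single genes were also compared by exact permutation tests (SciPy 1.17.1). The fit was tested on simulated data. Groups came from the labels. The markers and gene lists were chosen with earlier results of these data known. Named were the markers, the called genes of each list or else its gene of smallest p, Adgre1, Cd68, Csf1 and Il34, and the 10 genes most like the markers' mean. Alternatives were other filters, priors, scalings, weights, blocks and left-out pups or array numbers. Figures were drawn with matplotlib 3.10.9.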

Additional observations from a re-analysis of the deposited data

Results flagged for a closer look

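Within groups, 3 values stood far from the rest of their group by Dixon's test at the 95% level. This was out of 40 combinations of a marker with a group of sex and maternal diet, and chance alone sets apart about 1 in 20. Clec4f in m-WS3 was 9.50, below the other m-WS pups at 9.68 to 9.76. C1qc in m-WS3 was 9.05, below the others at 9.25 to 9.37. C1qb in f-WS6 was 10.21, below the other f-WS pups at 10.35 to 10.43. The change of Cd163 in males minus that in females was -0.54, a difference between the sexes called at the unadjusted threshold but not after adjustment (adjusted p = 0.393 in limma).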

How the results depend on the processing

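The fall of Cd163 in males kept its direction in all 52 settings tried and passed the threshold in 50. Its log2 fold changes ran from -0.69 to -0.43, and its adjusted p was under 0.05 in 24 settings (0.00968 to 0.998). Many settings could not move the log2 fold change in males, which stayed at -0.59. Among these were fits that left out a female pup or changed only the filter or the prior, and the 24 include such fits. Of the fits that left out 1 male, only that without m-LF6 had an adjusted p under 0.05. The fall missed the threshold without array number 48 (-0.43) and within prefix G074 (-0.45), where the number of called markers was 0. Leaving out 1 pup at a time gave -0.68 to -0.51 with 1 marker called each time. The difference of the change of Cd163 between the sexes passed in 25 of 50 settings. It missed with an intensity of at least 50 (-0.54), the array number as random block (-0.50), averaged arrays (-0.53), the prefix as block (-0.52), within prefix G073 (-0.63) and G074 (-0.37), and without number 37 (-0.56), 39 (-0.38), 40 (-0.60), 48 (-0.56), 49 (-0.59) or 50 (-0.48), each with 0 markers called, and leaving out 1 pup gave -0.63 to -0.44 and 0 to 1 markers. In females 1 marker, C1qa, was called with arrays centred on the median, quantile normalization repeated, array weights, the prefix as block or without number 37, and leaving out 1 pup gave 0 to 1. C1qa passed in 10 of 52 settings (-0.31 to -0.16). Between the sexes on each diet 1 marker was called with array weights, 3 without number 50, and 0 to 2 when 1 pup was left out.

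Of 26 calls of genes of the other lists (in males, in females or for the sex difference), 1, C2 in females, passed in all settings tried, 15 passed in at least 45 of 50 or 51 settings, and the fewest were 17 of 51, for Mertk in males. Same-numbered pups of the 2 diets correlated at -0.26 to 0.26, which cannot settle whether the replicate numbers of the titles pair them. The main fit took the pups as unpaired. With the replicate number within each sex as a block, f-LF7, f-LF8 and f-LF9 were left out, since no f-WS pup shares their numbers. Cd163 in males was then -0.59 (adjusted p = 0.063 in limma), and its sex difference -0.49 missed the threshold with 0 markers called. Males minus females on each diet cannot be estimated with this block, since each block lies within a sex. Over all genes the split of calls depended on the scaling: 327 rose and 281 fell in males and 389 and 172 in females, against 248 and 341, and 208 and 264, with arrays centred on the median, and 301 and 315, and 264 and 269, with quantile normalization repeated.

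No value that changed its sign was called, either as reported or under the alternative. With array weights the values were in males Adgre1 0.022, Cd5l 0.013, Csf1r 0.014 and Timd4 0.0046, and for the sex difference Cd5l 0.030. Without number 50 they were in males Adgre1 0.15, C1qc 0.048, Cd5l 0.061, Cd68 0.11, Csf1r 0.11, Marco 0.084, Tat -0.042, Timd4 0.11 and Vsig4 0.081, and for the sex difference C1qc 0.049, Cd5l 0.11, Clec4f 0.050, Csf1r 0.044, Timd4 0.0051 and Vsig4 0.034. Within prefix G073 they were in males Adgre1 0.049, Cd5l 0.072, Csf1 -0.077, Csf1r 0.055 and Timd4 0.0063, in females C1qb -0.045 and Tat 0.11, and for the sex difference Cd5l 0.18, Clec4f 0.11 and Csf1r 0.0052. Within prefix G074 they were in females C1qc 0.033, Cd5l 0.068 and Clec4f 0.035. Without number 40 they were in males Cd5l 0.0031 and Timd4 0.0064, in females C1qc 0.011, Cd5l 0.077, Csf1 0.017 and Pdgfrb 0.0012, and for the sex difference C1qa -0.022. Without number 37 they were in females C1qb -0.0083, Cd68 -0.035 and Marco -0.064, and for the sex difference Clec4f 0.0098. Without number 39 they were in females C1qb -0.0037, Cd68 -0.0042 and Tat 0.13, and for the sex difference Cd5l 0.018 and Clec4f 0.037. Without number 49 they were in females C1qc 0.034 and Cd5l 0.043, and for the sex difference C1qa -0.013. Without number 48 they were in females Cd163 0.13, and for the sex difference Clec4f 0.024. With the replicate block they were in females C1qb -0.019, Cd68 -0.0032 and Il34 0.045, and for the sex difference Cd5l 0.028 and Clec4f 0.049. With quantile normalization repeated C1qb in females was -0.0002 and Clec4f 0.024 for the sex difference, where it was also 0.0031 with centred arrays, 0.0035 with the number as random block and 0.019 with the prefix as block.

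Leaving out 1 pup at a time also turned some uncalled values. The ranges in males were -0.11 to 0.10 for Adgre1, -0.14 to 0.026 for Cd5l, -0.14 to 0.070 for Cd68, -0.0005 to 0.094 for Csf1, -0.093 to 0.065 for Csf1r, -0.20 to 0.013 for Marco, -0.13 to 0.067 for Timd4 and -0.16 to 0.026 for Vsig4. In females they were -0.0017 to 0.053 for C1qb, -0.048 to 0.027 for C1qc, -0.15 to 0.035 for Cd163, -0.052 to 0.066 for Cd5l, -0.0032 to 0.066 for Cd68, -0.13 to 0.0036 for Il34 and -0.17 to 0.0053 for Tat. For the sex difference they were -0.21 to 0.017 for C1qc, -0.13 to 0.046 for Cd5l and -0.040 to 0.035 for Clec4f. The cause of these changes was not tested.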
